A study of Mus musculus with 6 samples.

Results

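The cytosolic ribosomal protein genes were examined in bulk RNA sequencing libraries labelled cerebellum, from WT mice and from mice known as KIKO (knock-in knock-out). Members were the protein-coding genes whose symbol starts with Rpl or Rps and a digit, together with Rpsa, Rplp0, Rplp1 and Rplp2. Pseudogenes named -ps and the Rps6k kinases were left out. This rule found 86 genes, 52 of the large and 34 of the small ribosomal subunit, among the 31053 genes of the count table. Since it reads symbols only, it also takes in Rpl7l1, which acts in the assembly of the large subunit, Rps19bp1, a protein that binds Rps19, and Rps27rt, a retrogene copy of Rps27. It leaves out genes such as Fau and Rack1, whose products are ribosomal proteins under other names.

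The study compared WT with KIKO mice, a model of Friedreich's ataxia. The paper describes CD45+/CD11b+ cells taken from cerebella at 6 mo of age by magnetic sorting, with 4 mice per group, and littermate C57BL/6 controls, whereas the labels name only the cerebellum and the genotype. 2 WT libraries (replicates 1 and 2) and 3 KIKO libraries were analysed, no treatment is given for any of them, and a WT sample numbered 3 was not analysed here. Nothing in the labels says whether each library came from a separate mouse, so the p-values measure the spread between these libraries.

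The libraries held between 1013107 and 1351339 counts, and 3 counts, the limit that a count of 0 allows, corresponded to a normalized CPM (counts scaled to the library's total) between 2.28 and 3.04. KIKO replicate 2 stood apart from the others. Its correlation with the other libraries over all genes (log2 CPM) was between 0.672 and 0.747, against 0.884 to 0.931 among the other 4. All 11 microglial markers could be tested, and their summed level was 12027 CPM in KIKO replicate 2 and between 4689 and 6775 CPM in the other 4. Markers of cells that a CD45+/CD11b+ sort should remove were present too, with all 6 choroid plexus markers summing to between 7863 and 15561 CPM and all 6 oligodendrocyte markers to between 4540 and 18861 CPM. The 5 markers of T and B cells were at 0 in every library except KIKO replicate 1, at 2.37 CPM. In bulk libraries, fewer cells of a type and less RNA per cell cannot be told apart.

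Ribosomal proteins clothe the ribosomal RNAs of the large and the small subunit, and each ribosome holds a single copy of nearly all of them, so their genes are usually regulated together. Their mRNAs start with a run of pyrimidines, the 5′ terminal oligopyrimidine (TOP) motif, through which mTOR and LARP1 control their translation. They are abundant in every cell, and several are known for work outside the ribosome, such as the sensing of faulty ribosome assembly by the 5S ribonucleoprotein through Mdm2 and p53.

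The 86 genes together took 1.92% of all counts in WT replicate 1 and 2.40% in WT replicate 2. In the KIKO libraries they took 1.93%, 4.08% and 1.94%. KIKO replicate 2 thus had 1.70 times the share of the next highest library, WT replicate 2, while the other 3 libraries lay between 1.92% and 1.94%. The exact 95% binomial intervals, which cover counting error only, were 1.89% to 1.95% for WT replicate 1, 2.37% to 2.42% for WT replicate 2, 1.91% to 1.95% for KIKO replicate 1, 4.04% to 4.11% for KIKO replicate 2 and 1.91% to 1.97% for KIKO replicate 3. The mean share was 2.16% ± 0.335 (SD, n = 2) for the WT libraries, against 2.65% ± 1.24 (SD, n = 3) for KIKO. The genotypes overlapped, and the difference of 0.492 percentage points became -0.222 without KIKO replicate 2, whose removal left a KIKO mean of 1.94% ± 0.00713 (SD, n = 2). Both subunits had the same order of libraries at the top. Large subunit genes took 2.33% of counts in KIKO replicate 2, 1.32% in WT replicate 2 and 1.03% to 1.05% elsewhere, and small subunit genes took 1.75%, 1.08% and 0.872% to 0.902%. Genes encoded by the mitochondrial genome were high in the same libraries, at 8.77% of counts in KIKO replicate 2, 7.63% in WT replicate 2 and 3.80% to 4.32% in the others. With their counts taken out of the totals, the ribosomal protein genes took 4.47% in KIKO replicate 2 and 2.59% in WT replicate 2. The others were then at 2.01% to 2.02%, and the difference between the genotypes was 0.533 percentage points. Why both sets of genes were high in these libraries was not tested.

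**Figure D1:**
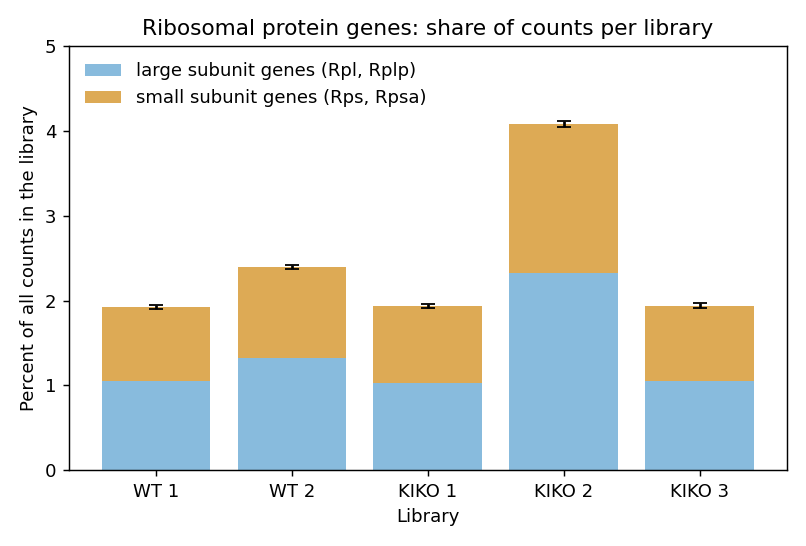
Share of each library's counts (percent, y axis) taken by large subunit (blue) and small subunit (ochre) ribosomal protein genes in the 2 WT and 3 KIKO libraries, with exact 95% binomial intervals of the total as error bars. KIKO replicate 2 reaches 4.08% and WT replicate 2 reaches 2.40%, while the other 3 libraries lie between 1.92% and 1.94%.

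For the comparison of genotypes, 82 of the 86 genes had enough counts to be tested, 49 of the large and 33 of the small subunit. Of these, 0 passed the thresholds of the study (p under 0.05, taken here as unadjusted, with a log2 fold change beyond 0.75 either way) in the edgeR quasi-likelihood test, against 1.2% of all 10889 genes tested. 0 members had an unadjusted p under 0.05 and 0 passed after Benjamini-Hochberg adjustment over all genes, with every adjusted p rounding to 1. Unadjusted p ran upwards from 0.152. DESeq2 and limma called 0 members as well. The fitted level was higher in KIKO for 53 and lower for 29 members, with a median log2 fold change of 0.13 (0.02 over all genes, 51.9% of which were higher) and a range from -0.57 to 0.85. Standard errors of these log2 fold changes ran from 0.351 to 1.10, with a median of 0.473. Without KIKO replicate 2, only 19 of the 82 members were higher, the median became -0.23 (-0.01 over all genes), and 8 members passed the thresholds, all lower in KIKO, against 6.45% of all genes. The values of the 2 WT and the 3 KIKO libraries did not overlap for 6 members (7.32%), whereas this held for 16.7% of all genes tested.

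Of the members with a higher fitted level in KIKO, the 5 with the smallest p were Rpl37, Rps29, Rps21, Rps25 and Rps27, with unadjusted p between 0.152 and 0.2 (edgeR), and none of them passed. Levels within each genotype follow the replicate numbers. Rpl37, a zinc-binding protein of the large subunit, was at 564 and 574 CPM in WT and at 589, 1746 and 746 CPM in KIKO. This was a log2 fold change of 0.85 (SE 0.54). All 3 KIKO values lay above both WT values, but KIKO replicate 1 exceeded WT replicate 2 by little. Rps29, a small zinc-binding protein of the small subunit, was at 548 and 658 CPM in WT and at 693, 1517 and 805 CPM in KIKO. Its fitted log2 fold change was 0.74 (SE 0.47). Its groups did not overlap either. Rps21, at 415 and 417 CPM in WT and at 574, 777 and 517 CPM in KIKO, gave nearly equal WT values and 3 KIKO values above them. For Rps21, edgeR gave a log2 fold change of 0.58 (SE 0.39). Rps25, which is needed for initiation on some viral internal ribosome entry sites, was at 322 and 281 CPM in WT and at 328, 629.8 and 401 CPM in KIKO. The log2 fold change was 0.59 (SE 0.42). Rps27, a zinc finger protein of the small subunit, was at 190.3 and 201 CPM in WT and at 214, 641 and 179 CPM in KIKO. This was a log2 fold change of 0.82 (SE 0.59). Here KIKO replicate 3 was below both WT libraries and only KIKO replicate 2 was far above them. Without KIKO replicate 2, these log2 fold changes were 0.22 for Rpl37, 0.31 for Rps29, 0.38 for Rps21, 0.27 for Rps25 and 0.00011 for Rps27. Besides these, Rps15a also had groups that did not overlap, at 194 and 229.8 CPM in WT and at 262, 319 and 245 CPM in KIKO, with the KIKO values above the WT values.

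The 5 members with the smallest p on the lower side were Rpl6, Rpl28, Rps27l, Rpl10a and Rpsa, with unadjusted p between 0.221 and 0.441, and none passed. Rpl6, a large subunit protein, was at 114 and 103 CPM in WT and at 93.1, 44.8 and 84.2 CPM in KIKO. Its fitted log2 fold change was -0.55 (SE 0.42). It was the only member whose KIKO values were all below the WT values, and KIKO replicate 2 was the lowest library instead of the highest. Rpl28, a protein of the large subunit without a bacterial counterpart, was at 213 and 343 CPM in WT and at 175, 264 and 143 CPM in KIKO. For Rpl28, edgeR gave a log2 fold change of -0.52 (SE 0.42). KIKO replicate 2 lay between the WT values, and the other 2 KIKO libraries lay below both. Rps27l, the p53-responsive paralogue of Rps27, was at 25.9 and 35.6 CPM in WT and at 14.98, 30.9 and 16.2 CPM in KIKO. The log2 fold change was -0.57 (SE 0.54). Rpl10a, which sits on the L1 stalk, was at 15.9 and 37.2 CPM in WT and at 15.8, 17.8 and 24.4 CPM in KIKO, with WT replicate 2 alone above the other libraries. This was a log2 fold change of -0.47 (SE 0.57). This direction turned without WT replicate 2, at a log2 fold change of 0.26. Rpsa, the small subunit protein also known as laminin receptor, was at 223 and 312 CPM in WT and at 211, 251 and 194 CPM in KIKO. Its fitted log2 fold change was -0.29 (SE 0.36). Without KIKO replicate 2, the log2 fold changes of Rpl6, Rpl28, Rps27l, Rpl10a and Rpsa were -0.29, -0.81, -0.99, -0.44 and -0.41.

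**Figure D2:**
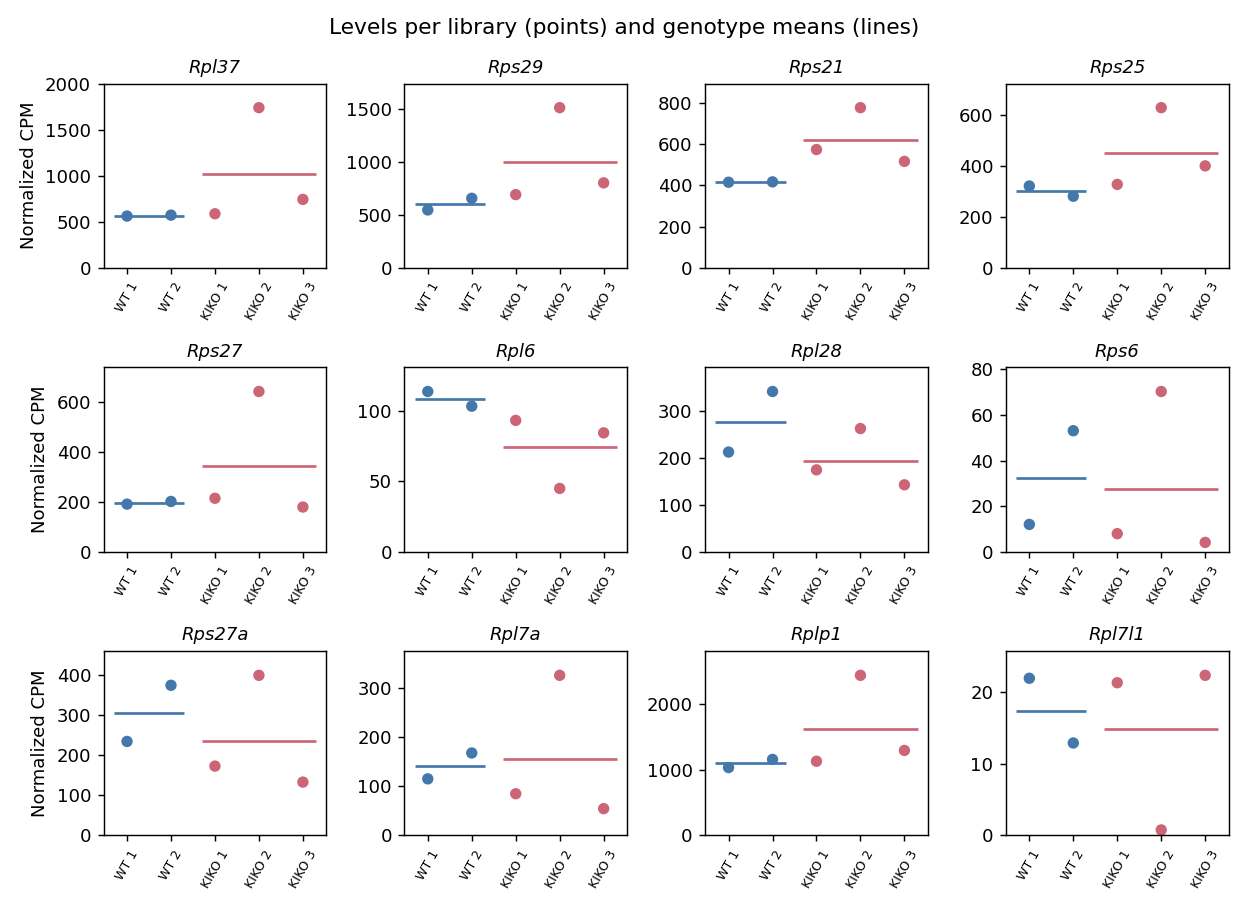
Normalized CPM (y axes, starting at 0, scaled per gene) of 12 members in each WT (blue) and KIKO (red) library as points, with the genotype means as lines. KIKO replicate 2 is the highest library in 9 of the 12 panels, lies between the WT libraries in that of Rpl28, and is the lowest in those of Rpl6 (44.8 CPM) and Rpl7l1 (0.773 CPM).

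The acidic stalk proteins Rplp0, Rplp1 and Rplp2 recruit elongation factors. Rplp1 was at 1035 and 1159 CPM in WT and at 1131, 2440.3 and 1296 CPM in KIKO. Rplp2 was at 393 and 501 CPM in WT and at 394, 755 and 346 CPM in KIKO. Rplp0, which anchors the stalk, was at 203 and 237 CPM in WT and at 178, 282 and 170.5 CPM in KIKO. KIKO replicate 2 was the highest library for all 3, and the log2 fold changes of 0.56 (SE 0.48), 0.16 (SE 0.45) and -0.07 (SE 0.38) for Rplp1, Rplp2 and Rplp0 did not pass. Rpl5 and Rpl11 bind the 5S ribosomal RNA and, outside the ribosome, Mdm2. Rpl5 was at 126 and 210.1 CPM in WT and at 114, 281 and 84.2 CPM in KIKO. Rpl11 was at 400.4 and 472 CPM in WT and at 301, 789 and 356 CPM in KIKO. For both, KIKO replicate 2 was the highest and one of the other KIKO libraries the lowest, with log2 fold changes of -0.07 (SE 0.55) and 0.14 (SE 0.49).

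Rps6, the substrate of S6 kinase, had the largest standard error of the 82 members. It was at 11.95 and 53.1 CPM in WT and at 7.89, 70.3 and 4.06 CPM in KIKO. The values of the 2 libraries numbered 2 were several times those of the other 3, and the log2 fold change of -0.24 had a standard error of 1.10. The exons of this gene share 84.1% of their 75-base words with 11 other annotated genes, so its counts are uncertain. Rps19, whose loss causes Diamond-Blackfan anaemia, was at 236 and 203 CPM in WT and at 204, 461 and 284 CPM in KIKO, and its log2 fold change was 0.53 (SE 0.44). Rps3, a protein at the mRNA entry site that shares no such words with another gene, was at 307 and 414 CPM in WT and at 256, 529 and 224 CPM in KIKO, and its log2 fold change was -0.10 (SE 0.47). KIKO replicate 2 was the highest library for both.

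Some ribosomal proteins are made as fusions with ubiquitin or a ubiquitin-like protein. Rps27a, a member by its symbol, was at 234 and 374 CPM in WT and at 173, 399 and 133 CPM in KIKO. Fau, which yields the small subunit protein eS30, was at 239 and 354 CPM in WT and at 252, 171 and 221 CPM in KIKO. KIKO replicate 2 was the highest library for Rps27a and the lowest for Fau. Their log2 fold changes were -0.37 (SE 0.52) for Rps27a and -0.47 (SE 0.38) for Fau. Rack1, a scaffold protein on the small subunit, was at 231 and 262 CPM in WT and at 214, 261 and 252 CPM in KIKO, and its log2 fold change was -0.03 (SE 0.35). None of the 3 passed the thresholds.

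Among the paralogues, the tissue-restricted copies were near or at 0. Rpl10l, known from testis, had 0 counts in all 5 libraries. Rpl3l, the striated muscle copy of Rpl3, had 2 counts, all in KIKO replicate 1, and Rpl39l, the testis copy of Rpl39, had 3 counts, all in KIKO replicate 3. Rps27rt had between 0 and 3 counts. These 4 were the members that could not be tested, and their levels lie at or under the limit of 3 counts per library. Rpl22l1, a copy of Rpl22 that can replace it, was measured well, at 47.8 and 68.3 CPM in WT and at 48.1, 212 and 44.6 CPM in KIKO. For Rpl22l1, edgeR gave a log2 fold change of 0.81 (SE 0.71). Its counts were 0.239 and 0.409 of those of Rpl22 in the WT libraries and 0.253, 0.471 and 0.229 in the KIKO libraries, again highest in both libraries numbered 2. Its partner Rpl22 was at 200.2 and 167 CPM in WT and at 190.1, 449.7 and 195 CPM in KIKO, with a log2 fold change of 0.60 (SE 0.48). Rpl36al had 0.133 to 0.187 of the counts of Rpl36a in WT and 0.138 to 0.195 in KIKO, so these ranges overlapped. Rps27l had 0.136 and 0.177 of the counts of Rps27 in WT and 0.0701, 0.0482 and 0.0909 in KIKO, with all 3 KIKO ratios below both WT ratios. These ratios are descriptions without a test. Of the other partners, Rpl3 was at 253 and 279.9 CPM in WT and at 226, 485 and 268 CPM in KIKO. Rpl39 was at 128 and 179.8 CPM in WT and at 142, 429 and 123 CPM in KIKO. Rps4x, the X-linked small subunit gene, was at 102 and 192 CPM in WT and at 139, 447 and 109.6 CPM in KIKO. The log2 fold change was 0.66 (SE 0.65). Rpl36a was at 251 and 372 CPM in WT and at 282, 475 and 279 CPM in KIKO. Rpl7 was at 268 and 339 CPM in WT and at 247, 437 and 278 CPM in KIKO. All 5 were highest in KIKO replicate 2.

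KIKO replicate 2 was the highest of the 5 libraries for 66 of the 82 members (80.5%), against 33.9% of all genes tested. It lay above the mean of the other 4 libraries (log2 CPM) for 73 members (49.3% of all genes) and more than 2-fold above it for 33 (17.6% of all genes). The median difference was 0.86 for the members and -0.02 for all genes, at 0.91 for the large and 0.81 for the small subunit. The largest differences were those of Rps6 (2.34), Rpl22l1 (2.005), Rps4x (1.76), Rpl7a (1.72), Rps27 (1.71) and Rpl35a (1.66). Since the library was singled out for its values, these are descriptions. The 9 members below the mean of the other 4 libraries were Rpl7l1 (-3.08), Rps19bp1 (-1.82), Rpl6 (-1.10), Rps14 (-0.65), Rpl13a (-0.41), Rpl8 (-0.29), Rpl10a (-0.28), Rpl27a (-0.14) and Rps15 (-0.13). The 2 at the head of this list are not core ribosomal proteins. Rpl7l1 was at 21.9 and 12.9 CPM in WT and at 21.3, 0.773 and 22.3 CPM in KIKO, 1 count in KIKO replicate 2, and Rps19bp1 was at 28.9 and 20.5 CPM in WT and at 31.5, 6.95 and 37.5 CPM in KIKO.

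WT replicate 2 showed a smaller shift in the same direction. It lay above the mean of the other 3 libraries besides KIKO replicate 2 for 66 of the 82 members (51.6% of all genes), with a median difference of 0.41 on the log2 scale (0.02 over all genes). Rps6 stood 2.59 above. Across the 82 members, the log2 ratio of WT replicate 2 to WT replicate 1 correlated with that of KIKO replicate 2 to KIKO replicate 1 at r = 0.350, and with that of KIKO replicate 2 to KIKO replicate 3 at r = 0.509. The points are genes of the same libraries and share their depth, so no p is given.

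**Figure D3:**
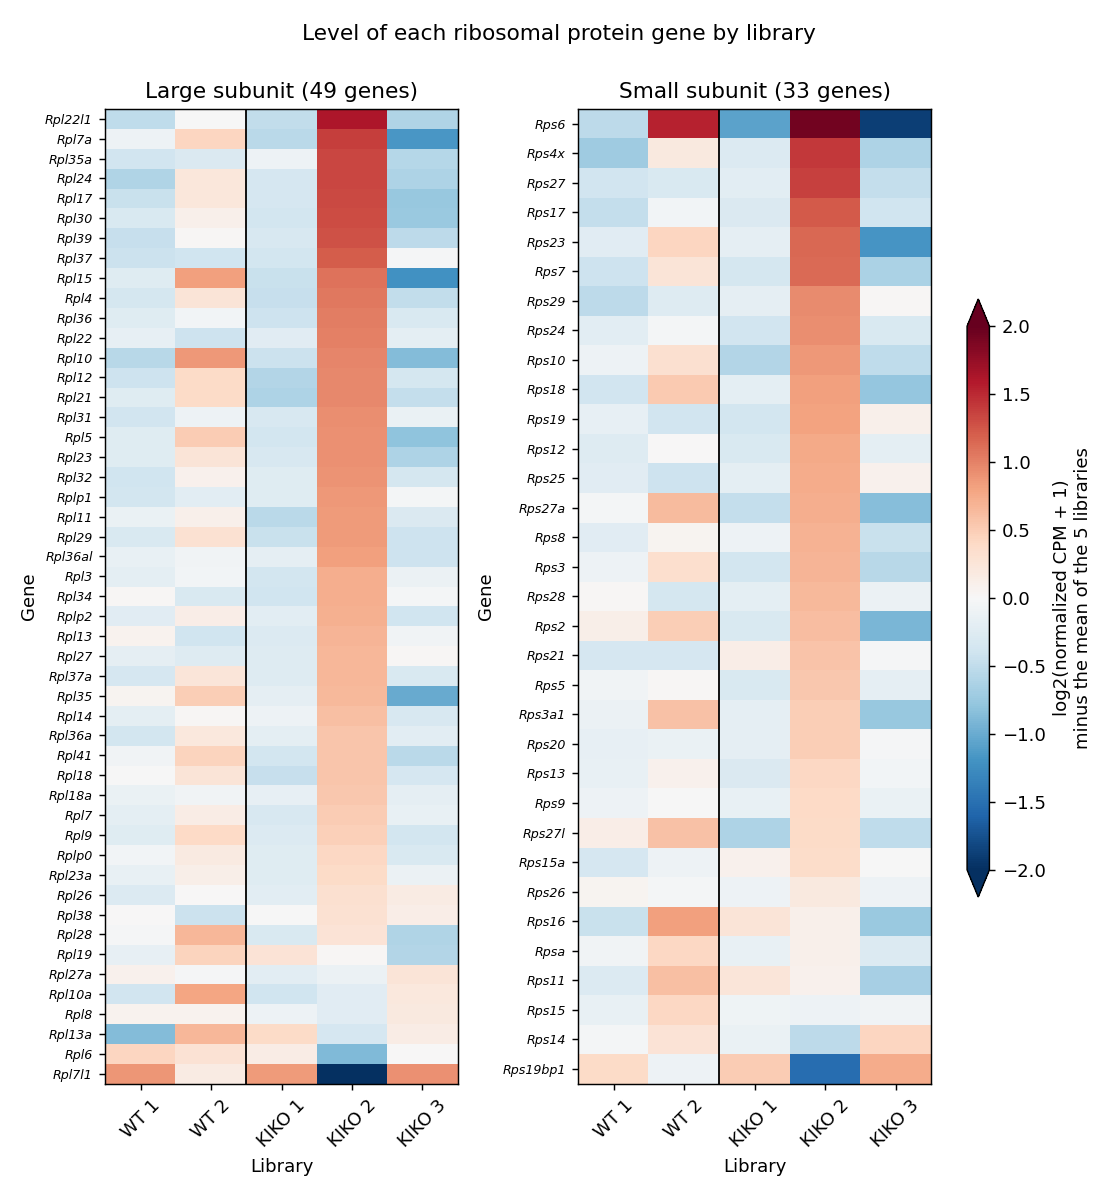
Level of the 82 tested members in each library as log2(normalized CPM + 1) minus the gene's mean over the 5 libraries (colour, saturating at 2 in either direction), large subunit left and small subunit right, ordered by KIKO replicate 2, with a line between WT and KIKO. KIKO replicate 2 is the highest library for 66 genes and WT replicate 2 for 10, and Rpl7l1 and Rps19bp1 are the lowest in KIKO replicate 2.

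Without KIKO replicate 2, the comparison of 2 WT with 2 KIKO libraries placed 63 of the 82 members lower in KIKO and 19 higher, whereas 50.9% of all 10373 genes then tested were lower. 37 members turned from higher to lower and 3 from lower to higher. 8 members passed the thresholds, all on the lower side, where 3.51% of all genes did. 15 members had an unadjusted p under 0.05 (8.21% of all genes), but the smallest adjusted p among the members was 0.237, so 0 passed the adjustment. The groups did not overlap for 37 members, 31 of them lower in KIKO, against 38.8% of all genes. When WT replicate 2 was left out as well, 30 members were higher (51.4% of all genes), the median log2 fold change was -0.05, and the only member past the thresholds was Rpl13a, at 1.21 on the log2 scale in 1 WT against 2 KIKO libraries (edgeR, unadjusted p = 0.0455, not past the adjustment), where 8.48% of all genes passed. Rpl13a, known from the GAIT complex that silences inflammatory transcripts, was at 11.95 and 36.4 CPM in WT and at 29.97, 17.8 and 25.4 CPM in KIKO, so that WT replicate 1 was its lowest library.

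The 8 members that passed without KIKO replicate 2 are described by their values without that library. Rps6 was at 11.95 and 53.1 CPM in WT and at 7.89 and 4.06 CPM in KIKO replicates 1 and 3, a log2 fold change of -2.42 (SE 0.65; edgeR adjusted p = 0.237). Rps27a, the ubiquitin fusion, was at 234 and 374 CPM against 173 and 133 CPM, a log2 fold change of -0.997 (SE 0.27; adjusted p = 0.243). Rpl7a, of the large subunit, was at 116 and 168 CPM against 85.2 and 54.8 CPM, a log2 fold change of -1.02 (SE 0.31; adjusted p = 0.329). In each of the 3, both KIKO values were below both WT values, and WT replicate 2 was above WT replicate 1. The other 5 were Rpl28 (log2 fold change -0.81), Rps2 (-0.90), Rpl10 (-0.98), Rpl35 (-0.83) and Rpl5 (-0.76), with adjusted p between 0.413 and 0.505 and unadjusted p between 0.00581 and 0.0152 in the same test. Rps2 binds near the mRNA entry, Rpl10 completes the peptidyl transferase region of the large subunit, and Rpl35 lies at the exit of the peptide tunnel. Rps2 was at 111 and 144 CPM against 82.8 and 53.8 CPM. Rpl10 was at 72.7 and 196 CPM against 78.9 and 57.8 CPM, so its groups overlapped. For 7 of the 8, KIKO replicate 2 was above both WT libraries, and for Rpl28 it lay between them. Summed microglial markers without that library were 5344 and 6775 CPM in WT against 4689 and 5413 CPM in KIKO, and the oligodendrocyte markers 5179 and 11844 CPM against 4540 and 5803 CPM. These sums overlapped, but 10 of the 11 microglial markers were lower in KIKO, with a median log2 fold change of -0.34 and 1 past the thresholds. Of the 6 oligodendrocyte markers, 5 were lower, with a median of -0.50 and 2 past the thresholds. The choroid plexus markers separated the groups, at 12829.9 and 13919 CPM in WT against 9453 and 7863 CPM in KIKO. All 6 of them were lower in KIKO, with a median log2 fold change of -0.99, and 3 passed the thresholds. Summed endothelial markers were lower too, at 346 and 567 CPM in WT against 306 and 324 CPM in KIKO. Of these 5 markers, 3 were lower and 2 higher in KIKO, with a median log2 fold change of -0.21 and 1 past the thresholds. That median was 0.63 when WT replicate 2 was left out as well. Purkinje neuron markers separated the groups with KIKO higher, at 386 and 266 CPM against 593 and 526 CPM, with 5 of 5 higher and 2 past the thresholds. So did the summed fibroblast markers, by little, at 69.7 and 61.4 CPM against 71.0 and 74.1 CPM. Only 2 of them could be tested, 1 higher and 1 lower in KIKO. Summed markers of monocytes and neutrophils were at 20.9 and 31.9 CPM against 96.2 and 35.5 CPM. Of these, 2 could be tested, 2 were higher and 1 passed the thresholds. The part of these cell types in the differences was not tested.

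**Figure D4:**
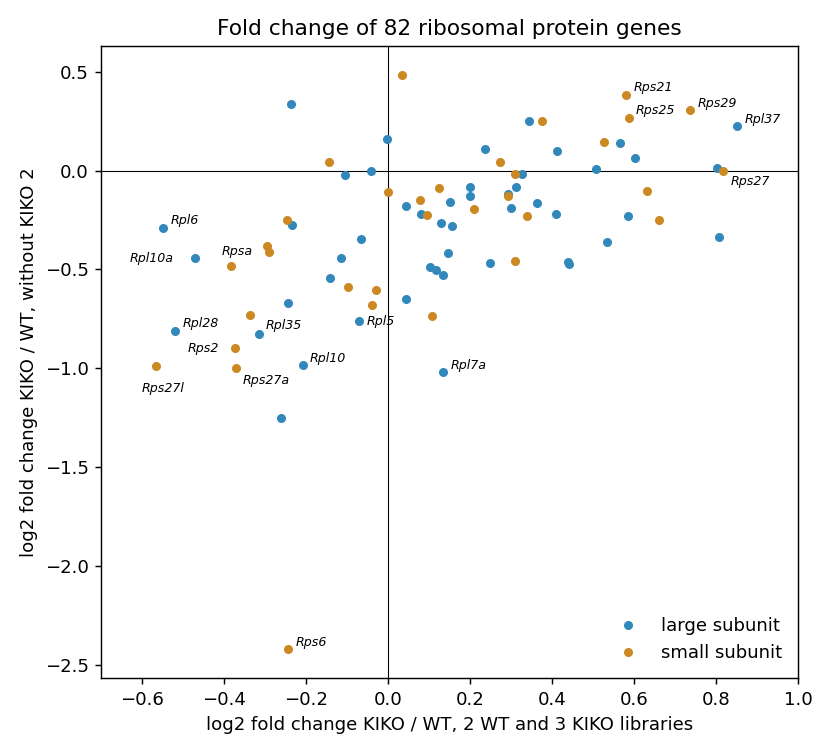
Log2 fold change of KIKO over WT for the 82 tested members with all 5 libraries (x axis) and without KIKO replicate 2 (y axis), large subunit in blue and small subunit in ochre, with named members labelled. 37 points lie in the lower right part, higher with all libraries and lower without KIKO replicate 2, and Rps6 is the lowest point at -2.42.

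The reads of ribosomal protein genes are hard to assign because the genome holds many retrocopies of them. Of the 86 members, 81 shared at least 1 word of 75 bases, the length of a read, with another annotated gene. The median member shared 27.3% of its words, and 20 shared more than 50%. Among the 8 genes above, Rps6 shared 84.1%, Rpl7a 77.4% (with 64 other genes), Rpl10 71.1%, Rps2 49.4% (with 50 other genes), Rps27a 47.9%, Rpl5 43.5%, Rpl35 35.6% and Rpl28 24.1%. Rps21, with 6.56%, and Rps25, with 18.03%, were among the members that shared less. Of the genes that share words, 0 of 11 for Rps6 and 1 of 64 for Rpl7a had a row in the count table. The 9 rows of pseudogenes named -ps held at most 17 counts in a library. Adding them left the difference in the share of counts at 0.492 percentage points, but copies under other names were not added. Across the tested members, the share of words correlated with the difference of KIKO replicate 2 from the other libraries at r = 0.283 and with that of WT replicate 2 at r = 0.382. The exons of 19 members also overlap those of another gene, as those of Rpl28 do with Ube2s. The strand setting and the handling of reads with several positions are not given in the sources used here, so the counts of these members are uncertain.

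The windows around the transcription start are shown for members named above, since the start of the mRNA carries the motif that the family is known for. RefSeq (GRCm38.p6) gave a window for 66 of the 86 members. Each line below holds 30 bases centred on the annotated start, 5′ to 3′ on the gene's strand, with the longest run of C and T in capitals.
The first 7 are the members past the thresholds without KIKO replicate 2 that have a window (Rps27a has none), the next 4 are those of the 5 higher members with the smallest p (Rps29 has none), and the last 3 lay farthest below the other libraries in KIKO replicate 2.
Rps6: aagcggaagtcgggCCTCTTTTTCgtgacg
Rpl7a: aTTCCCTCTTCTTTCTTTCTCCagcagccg
Rpl28: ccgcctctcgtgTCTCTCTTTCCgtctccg
Rps2: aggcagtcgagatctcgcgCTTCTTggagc
Rpl10: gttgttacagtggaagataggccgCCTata
Rpl35: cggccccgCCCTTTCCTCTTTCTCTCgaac
Rpl5: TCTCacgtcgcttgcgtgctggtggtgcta
Rpl37: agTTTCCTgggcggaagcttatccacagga
Rps21: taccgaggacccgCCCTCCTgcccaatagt
Rps25: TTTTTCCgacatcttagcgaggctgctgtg
Rps27: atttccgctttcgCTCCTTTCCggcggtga
Rpl6: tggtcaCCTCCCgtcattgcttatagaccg
Rpl7l1: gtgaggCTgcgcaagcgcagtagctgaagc
Rps19bp1: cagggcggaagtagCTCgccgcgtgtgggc
The windows lie at chr4:86857353-86857382 (minus strand, Rps6), chr2:26910792-26910821 (plus strand, Rpl7a), chr7:4792950-4792979 (plus strand, Rpl28), chr17:24720048-24720077 (plus strand, Rps2), chrX:74270801-74270830 (plus strand, Rpl10), chr2:39005117-39005146 (minus strand, Rpl35), chr5:107900513-107900542 (plus strand, Rpl5), chr15:5116598-5116627 (plus strand, Rpl37), chr2:180257364-180257393 (plus strand, Rps21), chr9:44407699-44407728 (plus strand, Rps25), chr3:90213634-90213663 (minus strand, Rps27), chr5:121204486-121204515 (plus strand, Rpl6), chr17:46782642-46782671 (minus strand, Rpl7l1) and chr15:80264292-80264321 (minus strand, Rps19bp1).

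The runs of C and T were 10, 21, 11 and 18 bases long in Rps6, Rpl7a, Rpl28 and Rpl35 but 6, 3 and 4 bases in Rps2, Rpl10 and Rpl5. They were 6, 7, 7 and 9 bases long in Rpl37, Rps21, Rps25 and Rps27, and 6, 2 and 3 bases in Rpl6, Rpl7l1 and Rps19bp1, so long and short runs occur within the first group. A run of at least 8 bases was found in 25 of the 66 members (37.9%) and in 11.8% of the 26959 other genes with a window, with medians of the longest run of 6 and 4 bases. The same run on the opposite strand, read as A and G, was found in 3.03% of the members and in 12.9% of the other genes. Over the 62 tested members with a window, the length of the run correlated with the difference of KIKO replicate 2 from the other libraries at r = 0.162 and with the log2 fold change without that library at r = -0.223. A run is a description of these letters, the annotated start may be some bases away from the true one, and no p is given. Each window also holds bases upstream of the annotated start, where several runs lie, such as those of Rps25 and Rpl5. A run in it therefore need not be a TOP motif.

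Other genes of the translation machinery were set beside the family. The 12 tested transcripts of the list of other TOP mRNAs, such as Tpt1, Naca, Btf3, Fau and Rack1, had a median difference of 0.68 on the log2 scale in KIKO replicate 2, beside 0.86 for the ribosomal protein genes. KIKO replicate 2 lay above the mean of the other libraries for 11 of the 12, but it was the lowest library for Fau. The lists do not divide TOP from other mRNAs, since further lists hold TOP mRNAs too, such as Eef1a1 among the elongation factors. Of those, 2 of 8 lay above that mean. The median was -0.38 for 8 elongation factors, -0.02 for 35 initiation factors, -0.19 for 58 ribosome biogenesis factors, 0.05 for 17 RNA polymerase I genes, 0.19 for 18 genes of mTOR, S6 kinase and LARP1 signalling and 0.05 for 73 mitochondrial ribosomal proteins, against -0.02 over all genes. Genes outside translation were high there too. Their medians were 0.94 for 8 mitochondrially encoded genes, 1.14 for 6 oligodendrocyte markers and 0.63 for 11 microglial markers. Those of the other marker lists that could be tested lay between -0.63 (endothelial cells) and 0.93 (pericytes and mural cells). Between the genotypes, with all libraries, the median log2 fold change was 0.02 for the other TOP mRNAs (6 of 12 higher), -0.25 for the elongation factors (3 of 8 higher), -0.06 for the initiation factors (13 of 35 higher), -0.06 for ribosome biogenesis (27 of 58 higher), 0.12 for RNA polymerase I (10 of 17 higher) and -0.10 for the mitochondrial ribosomal proteins (32 of 73 higher). The 18 genes of mTOR, S6 kinase and LARP1 signalling had a median of -0.02 (7 higher). Of the 221 genes of these lists, 2 passed the thresholds (0.905%, beside 1.2% of all genes), so the lists held no larger share than the whole table. Ddx21, a helicase of ribosomal RNA processing, was lower in KIKO, at 144 and 66.7 CPM in WT against 38.6, 38.6 and 50.7 CPM in KIKO, a log2 fold change of -1.30 (SE 0.44) that did not pass the adjustment. Mrpl14, a mitochondrial large subunit protein, was higher, at 5.98 and 7.58 CPM in WT against 14.98, 33.2 and 17.3 CPM in KIKO, a log2 fold change of 1.67 (SE 0.70) that did not pass it either. Their unadjusted edgeR p lay between 0.0171 and 0.0420.

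**Figure D5:**
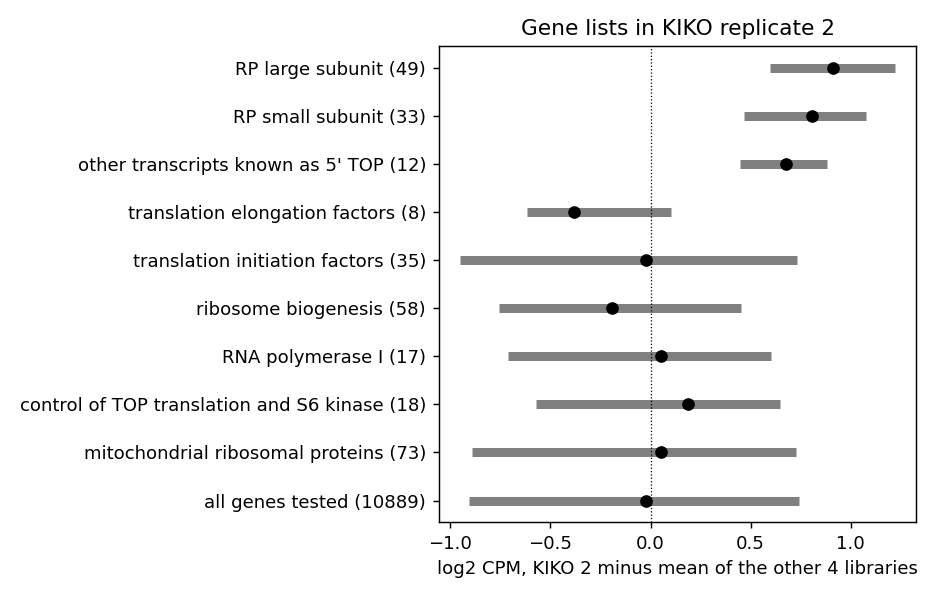
Median (points) and quartiles (bars) of the difference between KIKO replicate 2 and the mean of the other 4 libraries in log2 CPM (x axis) for ribosomal protein genes, other translation genes and all genes tested, with the number of genes in parentheses. The large and small subunit genes, at 0.91 and 0.81, and the other TOP transcripts, at 0.68, lie above the remaining lists shown, whose medians run from -0.38 to 0.19. Those remaining lists hold TOP mRNAs too, such as Eef1a1 among the elongation factors, at -0.38. Mitochondrially encoded genes (median 0.94) and cell type markers are not shown.

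Without KIKO replicate 2, 13 of the 215 genes of these lists passed the thresholds, 9 lower in KIKO (4.19%, beside 3.51% of all genes) and 4 higher (1.86%, beside 2.94% of all genes). The higher genes were the ribosome biogenesis factors Riok2 (log2 fold change 1.34) and Wdr12 (0.76) and the mitochondrial ribosomal proteins Mrps12 (0.94) and Mrps9 (0.78). The lower genes were Eef1a1, Eif4b, Tpt1, Sbds, Ddx21, Nop14, Gar1, Mrpl39 and Mrpl32. Eef1a1, which brings aminoacyl-tRNA to the ribosome and is itself a TOP mRNA, was at 459 and 810.0 CPM in WT against 437 and 312 CPM in KIKO replicates 1 and 3, a log2 fold change of -0.77. Tpt1, a growth-related TOP mRNA, was at 246 and 419 CPM against 220.0 and 142 CPM, a log2 fold change of -0.88. Sbds, which readies the large subunit for joining, was at 59.8 and 60.7 CPM against 23.7 and 15.2 CPM, a log2 fold change of -1.61. KIKO replicate 2 exceeded both WT libraries for these 3 and for Mrpl32, but not for the other 5 lower genes. None of the 3 passed the adjustment over all genes (edgeR, adjusted p of 0.450, 0.396 and 0.209). The mitochondrially encoded genes are not counted among these lists. Without KIKO replicate 2, 7 of the 7 then tested were lower in KIKO, with a median log2 fold change of -0.55 and 2 past the thresholds.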

How the data were processed

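Per the paper, reads were trimmed (Trimmomatic), mapped to mm10 (HISAT2) and assigned to genes (featureCounts); the annotation, the strand setting and the handling of reads with several positions are not given in the sources used here. For RNA extraction and libraries, the paper names a Zymo kit and a digital mRNA-seq service, whereas the labels name a lipid tissue kit and a stranded Illumina kit. The authors deposited raw counts per gene, and log2 values normalized with DESeq2. Columns were matched to samples by name, and 2 further columns that match no label were not used.

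Symbols came from GENCODE M21 (GRCm38) for 30934 of 31053 genes. Counts were tested in R 4.3.3 with edgeR 4.0.16 (filterByExpr, minimum count 10 and minimum total 15, TMM, glmQLFit and glmQLFTest, two-sided, without covariates) on 10889 genes, with Benjamini-Hochberg adjustment over all of them. Normalized CPM are counts scaled to the TMM-adjusted library size, and log2 CPM used a prior count of 2. The alternatives were DESeq2 1.42.0 (the study's tool), RLE factors, library size alone, 2 other filters, the replicate number as a block, limma 3.58.1 with trend on the log2 values, and each library left out in turn. The members and gene lists were chosen with earlier results of these data known. Members were named if they passed the thresholds, were among the 5 with the smallest p in either direction, or belonged to the stalk, the 5S particle, the ubiquitin fusions or the paralogues with their partners, or were Rps6, Rpsa, Rack1, Rps19 or Rps3. Single genes outside this rule were named after their values were seen: Rps15a, Rpl35a, Rpl13a and those below the mean of the other libraries in KIKO replicate 2. On simulated counts, 34 of 103 genes changed 2-fold and 86 of 97 changed 4-fold passed the thresholds, together with 489 of 10298 unchanged genes. The simulation changed only genes with higher levels, gave every gene the same spread between libraries and held no library apart from the others like KIKO replicate 2. These rates therefore need not hold for the members. Some results, among them the check of the targeted gene, are not reported here.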

Additional observations from a re-analysis of the deposited data

How the results depend on the processing

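With all 5 libraries, 0 ribosomal protein genes passed the thresholds under DESeq2, RLE factors, library size alone, both other filters and limma, and 0 passed the adjustment under any alternative. The number of members higher in KIKO was 49 to 57 under these, and their median log2 fold change was 0.07 to 0.20. Leaving out each library in turn gave 0 to 8 members past the thresholds, 19 to 69 members higher, a median of -0.23 to 0.34 and a difference in the share of counts of -0.222 to 0.851 percentage points. The lowest value of the last 3 and the 8 members past the thresholds, among them Rpl28 at a log2 fold change of -0.81, all came from the fit without KIKO replicate 2, and the cause was not tested. Without both libraries numbered 2, a choice made after seeing the data, 1 member passed, 30 were higher, the median was -0.05 and the share differed by 0.0150 percentage points. The log2 fold change of Rpl10a ran from -0.95 without WT replicate 1 to 0.26 without WT replicate 2, and was 0.31 without both libraries numbered 2. Members without Rpl7l1, Rps19bp1 and Rps27rt, also chosen afterwards, gave 52 of 80 higher. A lone WT library was assumed to vary like the KIKO libraries.

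With the replicate number as a block, 0 members passed the thresholds, 61 were higher and the median was 0.25. Only 2 pairs share a number and nothing else pairs the libraries. Libraries with the same number deviated together from their genotype means at r = 0.180 and 0.239 over all genes. WT replicate 1 correlated with KIKO replicate 3 at 0.218. With 2 WT libraries, the deviations of WT replicate 2 mirror those of WT replicate 1. The values are therefore not separate and cannot decide whether the numbers pair the libraries.

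The 2 WT libraries and their depth limit what can be seen, and members with under 3 counts in a library cannot be told from 0. In KIKO replicate 2, the mixture of cells and the level per cell cannot be told apart.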
